A study of Mus musculus with 6 samples.

Results

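The genes described here code for splicing factors and for the proteins of small nuclear ribonucleoproteins (snRNPs), taken by name from mouse symbols that begin with Srsf, Hnrnp, Sf3a or Sf3b, Snrp, or Lsm. The rule kept 65 of the 24532 genes in the tables. They fall into 5 name families, with 11 SR protein genes (Srsf), 20 hnRNP genes (Hnrnp), 9 genes of the SF3 complexes (Sf3a, Sf3b), 12 snRNP genes (Snrp) and 13 Sm-like genes (Lsm).

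RNA of 6 libraries, 2 from each of 3 sorted populations of C57BL/6J mouse bone marrow, was sequenced in a study of basophil progenitors. MAR1INT and MAR1HI cells carried no lineage markers, CD34 or c-Kit, were positive for CD200R3, and were parted by an intermediate or a high level of MAR1, an antibody that detects the IgE receptor alpha subunit (Fcer1a). BaP, which the labels name as a basophil precursor, lacked lineage markers and c-Kit and was positive for CD34 and MAR1, so all 3 populations shared the lineage-negative and c-Kit-negative gates. Each pair of libraries is described as biological duplicates, with no age, sex, number of mice or pooling given. The p-values weigh differences against the spread between such duplicates. That spread was pooled over the 3 populations and moderated by that of all tested genes.

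Splicing removes introns from pre-mRNA in the spliceosome, which is assembled on each intron from snRNPs. U1 marks the start of the intron, U2 marks the branch point near its end, and U4, U5 and U6 then join to form the active complex. SR proteins bind exons and favour the use of nearby splice sites, while many hnRNP proteins bind pre-mRNA and mask sites. Together they set which exons are kept, a choice that changes as blood cells mature and that in lymphocytes sets the isoforms of CD45.

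The tables implied between 4.75 and 5.28 gigabases of aligned sequence per library, and 9604 to 11544 genes reached 1 TPM (a level scaled for transcript length and for the library total). Basophil markers stood at a summed 14350 and 11530 TPM in MAR1INT, 21850 and 18120 TPM in MAR1HI and 17180 and 22030 TPM in BaP (replicates 1 and 2 in each), with all 10 above 1 TPM in some library. Of 7 mast cell markers, Cma1, Mcpt4, Mrgprb2 and Tpsab1 stayed below 1 TPM in every library. All 7 together summed to 0.0446 and 0.449 TPM in MAR1INT, 4.18 and 5.14 TPM in MAR1HI and 45.5 and 42.1 TPM in BaP. The libraries hold RNA of many cells, so fewer cells of a type and less RNA per cell cannot be told apart.

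Most of the splicing genes were well expressed in all 3 populations. A level of 10 TPM or more was reached in every library by 58 of the 65 genes, and 30 had a mean of 100 TPM or more. Their summed level was 9175.5 and 8949.1 TPM in MAR1INT, 10505 and 11526 TPM in MAR1HI and 11583 and 9572.2 TPM in BaP. That sum was between 0.895% and 1.16% of all TPM, and both MAR1INT libraries lay below the other 4. Srsf12, an SR protein gene, was listed at 0 in both MAR1INT libraries, at 0 and 0.0486 TPM in MAR1HI and at 0 and 0.152 TPM in BaP. Snrpn, an imprinted gene for a Sm protein known from brain and heart, was listed at 0 in all 6. These 2 genes did not reach 1 TPM in at least 2 libraries and were not tested, and the other 63 were.

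**Figure D1:**
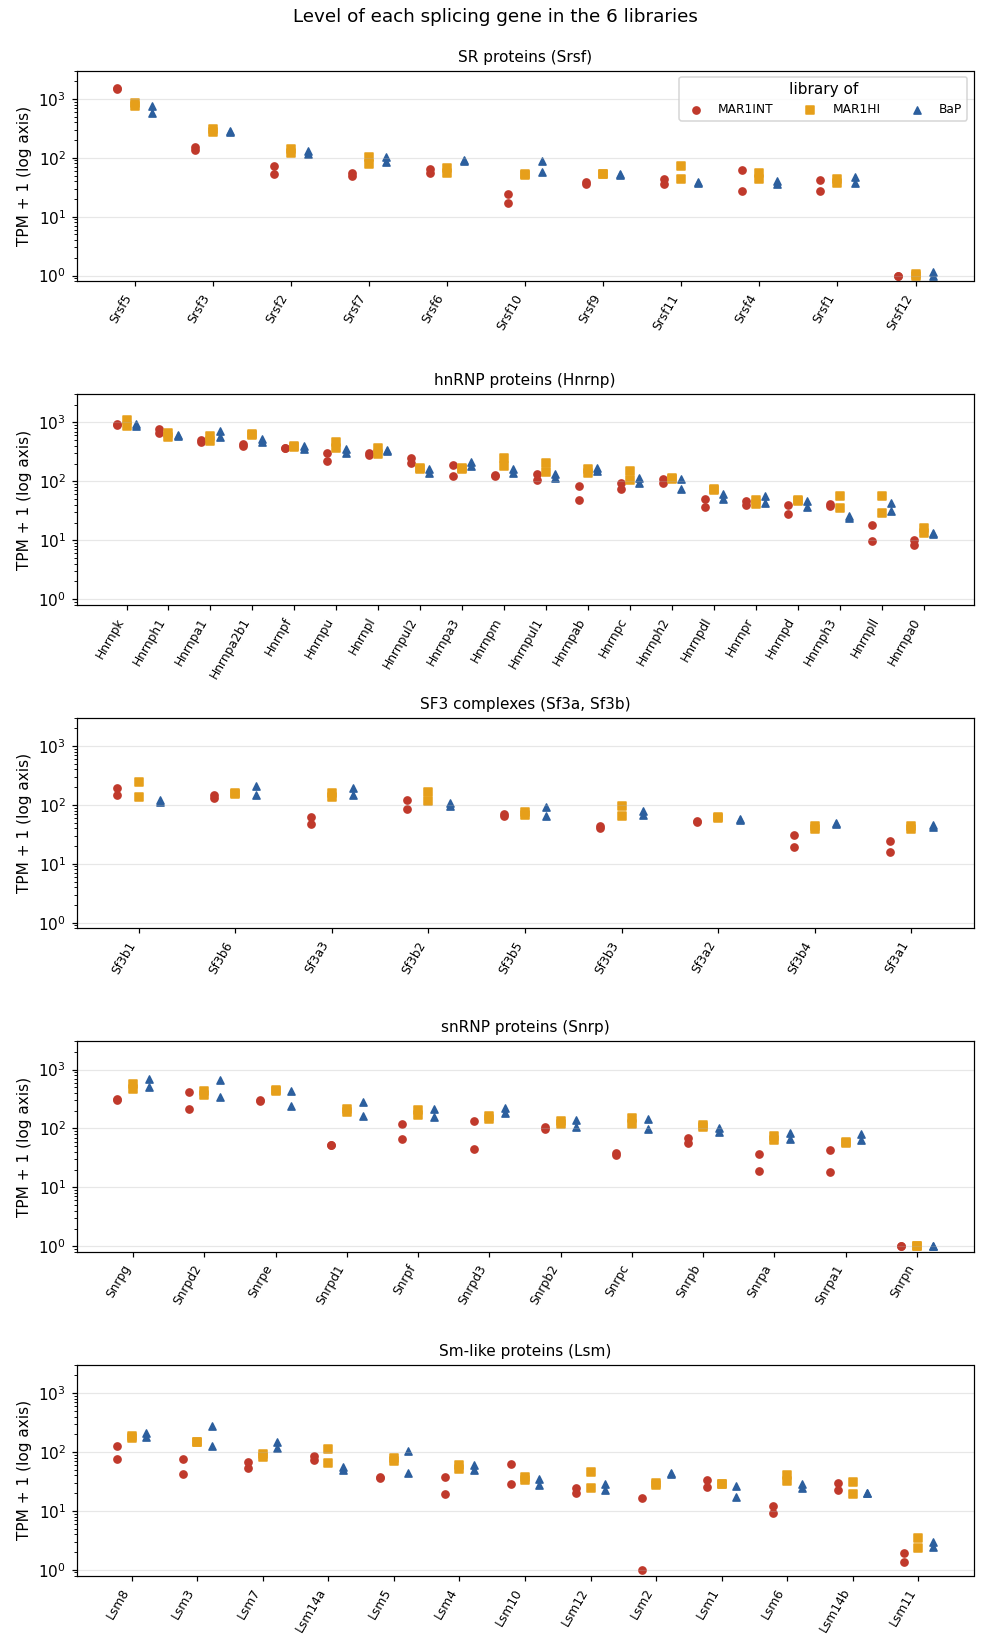
Level of each of the 65 genes (TPM + 1, log axis) in the 6 libraries, in a panel per name family with genes ordered by mean level; each point is 1 library. Srsf5 is the highest gene, with its MAR1INT points near 1500 TPM, and Srsf12 and Snrpn lie at or near 0.

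Many splicing genes were at a lower level in MAR1INT than in the other populations, and Srsf5 was at a higher one. A gene is said to have risen or fallen where limma's two-sided test on log2(TPM + 1) gave a Benjamini-Hochberg adjusted p under 0.05 over all 11337 genes tested. Against BaP, 21 of the 63 splicing genes (33.3%) fell in MAR1INT, where 20.4% of all tested genes did, and 1 rose, where 11.1% of all genes did. The median log2 difference of the 63 genes was -0.38, against -0.16 over all genes tested. Against MAR1HI, 17 fell in MAR1INT (27.0%), where 14.5% of all tested genes did, and 1 rose, where 2.29% of all genes did. There the median log2 difference was -0.57, against -0.36 over all genes. Both comparisons use the same MAR1INT libraries. In both the gene that rose was Srsf5, 15 genes fell in both, 6 fell only in the comparison with BaP and 2, Snrpb and Hnrnpm, only in that with MAR1HI, and the difference between the comparisons was not tested.

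No splicing gene passed the test between MAR1HI and BaP, which does not show that their levels were equal. None of the 63 genes rose or fell by limma's test, where 1.83% of all genes rose and 0.662% fell. An unadjusted p under 0.05 was found for 4 of the 63, and for 1980 of all 11337 genes. The smallest adjusted p was 0.204, and the log2 differences ran between -0.61 and 0.85 with a median of 0.06, against 0.24 over all genes. That median changed sign with the scaling, to -0.17 with FPKM, -0.16 after quantile normalization and -0.24 under median-of-ratios scaling. In each of these 3 fits Srsf6 fell, with 63.1 and 54.3 TPM in MAR1INT, 53.96 and 66.8 TPM in MAR1HI and 88.5 and 91.4 TPM in BaP. Over the 3 populations together, limma's moderated F test was passed by 17 of the 63 genes (27.0%), close to the 26.6% of all genes.

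By level alone, both MAR1INT libraries lay below the other 4 for 34 of the 63 genes (54.0%), as they did for 32.6% of all genes. They lay above the other 4 for 3 genes (4.8%), as they did for 11.5% of all genes. Those 3 were Srsf5, Hnrnph1 and Hnrnpul2. Srsf5 was the one that also passed the test.

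The number of genes that fell, and its excess over the share of all genes, depended on single libraries and on the fit. With no mean-variance trend in the fit, 12 genes (19.0%) fell against BaP, where 18.9% of all genes did, and 5 (7.9%) fell against MAR1HI, where 12.4% did. With only the libraries of MAR1INT and MAR1HI fitted, 7 (11.1%) fell, where 10.2% of all genes did. With no trend the shares of the splicing genes were thus about equal to and below those of all genes, and with these 4 libraries near that of all genes. Against BaP, 3 fell without BaP replicate 1 (Sf3a3, Snrpc and Snrpd1), fewer in proportion than the 9.73% of all genes, and 10 fell without BaP replicate 2, where 11.1% of all genes did. Without MAR1INT replicate 1, Lsm10 rose beside Srsf5. Without MAR1INT replicate 2, 14 fell (22.2%), where 22.9% of all genes did. Without either MAR1HI library 15 did (23.8%), where 16.8% of all genes did. Against MAR1HI, 2 fell without MAR1HI replicate 1 (Srsf3 and Snrpc) and 1 without MAR1HI replicate 2 (Snrpc), where 4.75% and 1.86% of all genes fell. Without BaP replicate 1, 7 fell there (11.1%), where 9.63% of all genes did, and without BaP replicate 2, 8 did (12.7%), where 9.67% of all genes did. Without MAR1INT replicate 2, 13 fell against MAR1HI (20.6%), where 19.8% of all genes did. In these 3 fits the share was near that of all genes, and the rise of Srsf5 was lost without either MAR1HI library. Each of these fits leaves 1 population with a single library, which is assumed to vary like the others, and has fewer degrees of freedom. For the F test the counts were 8 without MAR1HI replicate 2, and 5 and 10 without BaP replicates 1 and 2. The median difference from BaP was -0.24 without BaP replicate 1 and -0.52 without BaP replicate 2. That of MAR1HI from BaP was -0.04 without MAR1HI replicate 2 and 0.18 without BaP replicate 1.

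Scaling between libraries also moved the counts. Against MAR1HI, 1 splicing gene rose and 12 fell with quantile normalization, where 6.93% of all genes rose and 8.36% fell. With median-of-ratios scaling 1 rose and 9 fell, where 7.06% rose and 10.8% fell. Against BaP, 2 rose and 25 fell after quantile normalization, where 20.3% of all genes rose and 16.6% fell. Under median-of-ratios scaling 3 rose and 20 fell, where 15.8% of all genes rose and 22.5% fell. Under quantile normalization the median over all genes was 0.11 both against MAR1HI and against BaP, while that of the splicing genes was -0.41 and -0.45. Of the 40 calls of single genes, 5 were kept in all 17 alternative settings. These were the fall of Snrpc in both comparisons and, against BaP, the falls of Sf3a3 and Snrpd1 and the rise of Srsf5.

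**Figure D2:**
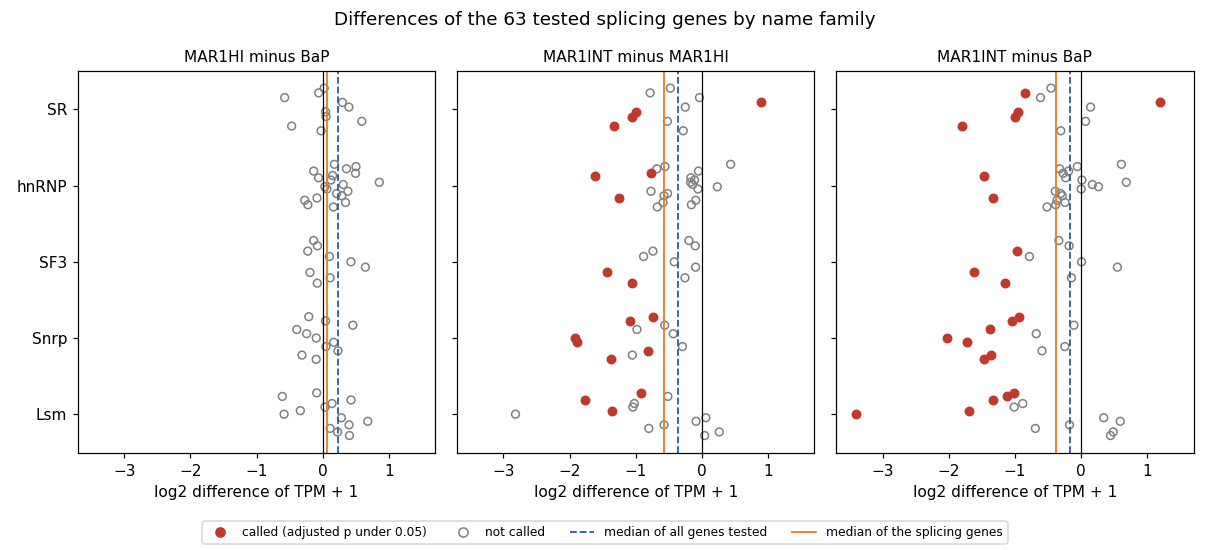
Log2 difference of TPM + 1 for the 63 tested genes by name family, in a panel per comparison; filled points passed the test, the dashed line is the median of all genes tested and the solid line that of the splicing genes. In MAR1INT minus BaP the 21 filled points on the left spread over all 5 families, 7 of them Snrp genes, and Srsf5 is the 1 filled point on the right.

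The promoters of Srsf5, Snrpc and Sf3a3 are shown because their genes kept their calls in every setting tried against BaP and moved in opposite directions. Snrpd1 kept its fall in every setting too, and its window is not shown. Each window runs from 250 bases before to 50 bases after the annotated start (RefSeq, build GRCm38.p6, plus strand). Capitals mark the letters CCGGAAG, a sequence bound by ETS family transcription factors, on either strand (CTTCCGG on the other strand). Shorter or other sequences that these factors can bind are not marked.
Srsf5, chr12:80945249-80945548: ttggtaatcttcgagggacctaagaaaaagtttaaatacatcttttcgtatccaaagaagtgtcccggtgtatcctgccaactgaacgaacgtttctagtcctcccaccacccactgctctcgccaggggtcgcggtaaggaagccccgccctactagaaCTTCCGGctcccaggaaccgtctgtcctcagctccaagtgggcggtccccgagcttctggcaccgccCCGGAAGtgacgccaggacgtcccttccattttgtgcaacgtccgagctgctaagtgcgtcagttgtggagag
Snrpc, chr17:27839837-27840136: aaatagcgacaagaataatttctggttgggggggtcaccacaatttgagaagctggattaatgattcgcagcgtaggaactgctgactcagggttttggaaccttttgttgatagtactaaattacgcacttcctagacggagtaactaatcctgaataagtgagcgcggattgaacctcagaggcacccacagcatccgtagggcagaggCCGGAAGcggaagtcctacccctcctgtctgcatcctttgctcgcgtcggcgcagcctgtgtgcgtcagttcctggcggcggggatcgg
Sf3a3, chr4:124714611-124714910: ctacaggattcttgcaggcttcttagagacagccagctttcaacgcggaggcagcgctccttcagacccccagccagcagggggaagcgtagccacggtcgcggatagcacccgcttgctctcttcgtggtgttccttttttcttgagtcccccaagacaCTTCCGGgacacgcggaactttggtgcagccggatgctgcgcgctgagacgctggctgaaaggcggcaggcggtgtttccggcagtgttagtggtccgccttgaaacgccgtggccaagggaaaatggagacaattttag
The marked letters occurred at 2 places in the Srsf5 window and at 1 place in each of the other windows shown. These letters were thus shared by the gene that rose and by Snrpc and Sf3a3, which fell. Windows were found for 56 of the 65 genes, 75 windows in all. The letters CCGGAAG were in 29.3% of these windows, in 23.8% of the 21 windows of genes that fell against BaP, in 19.0% of the windows of all tested genes and in 8.86% of all windows. The GC box letters GGGCGG were in 72.0%, 71.4%, 61.8% and 35.7% of the same sets, and the letters CCAAT in 44.0%, 42.9%, 38.5% and 37.4%. The E-box letters CACGTG were in 9.33%, 9.52%, 10.1% and 7.15% of these sets. TATAAA was in 9.33%, 19.0% (4 of the 21 windows of genes that fell), 7.15% and 13.6%. AAGATGG, a YY1 core, was in 5.33%, 14.3% (3 of the 21), 7.45% and 6.34%. All were sought on both strands, CCGGAAG and AAGATGG can share the letters AAG, and a match is only a run of letters.

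Srsf5 (mm10, chr12:80945499-80950506) codes for an SR protein that binds exonic enhancers. It was the highest of the 65 genes over the 6 libraries, with a mean of 994.5 TPM, and it stood at 1553 and 1458 TPM in MAR1INT, 856.8 and 767.8 TPM in MAR1HI and 755.6 and 576.5 TPM in BaP. Both MAR1INT libraries were far above the other 4, and each MAR1HI library was above both BaP libraries. Srsf5 rose in MAR1INT by a log2 difference of 1.19 ± 0.19 (SE) against BaP (adjusted p = 0.00191) and of 0.89 ± 0.19 against MAR1HI (adjusted p = 0.0145). Its means were 1505 ± 67.2 TPM in MAR1INT, 812 ± 62.95 TPM in MAR1HI and 666 ± 127 TPM in BaP (SD, n = 2), a ratio of 2.26 between MAR1INT and BaP. The difference between MAR1HI and BaP was 0.30 ± 0.19 and did not pass (adjusted p = 0.469).

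The other SR genes together were lower in MAR1INT. Their summed level was 529 and 450.8 TPM in MAR1INT, 743.9 and 889.3 TPM in MAR1HI and 830.8 and 818.9 TPM in BaP. As a share of all SR gene TPM, Srsf5 was 74.6% and 76.4% in MAR1INT, 53.5% and 46.3% in MAR1HI and 47.6% and 41.3% in BaP. Its share was thus higher in both MAR1INT libraries than in the other 4.

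**Figure D3:**
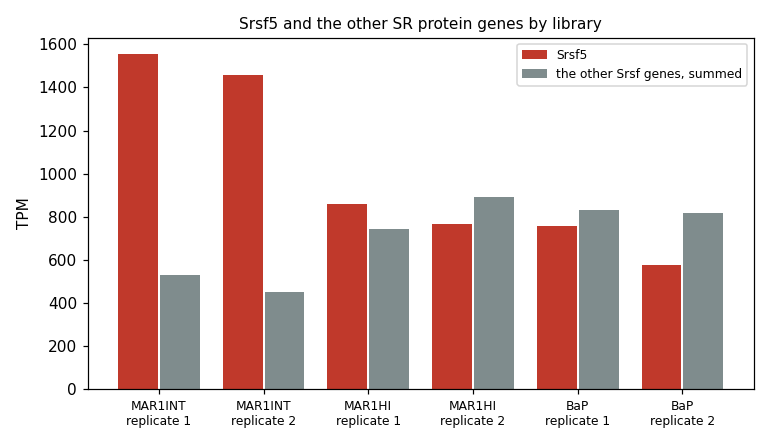
Level of Srsf5 and the summed level of the other Srsf genes (TPM, bars from 0) in each of the 6 libraries. Srsf5 stands at 1553 and 1458 TPM in MAR1INT, where the other genes sum to 529 and 450.8 TPM. In both BaP libraries and in MAR1HI replicate 2 the other genes sum to more than Srsf5.

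Of the 10 tested SR genes, 4 fell in MAR1INT against BaP (40.0%, where 20.4% of all genes did), namely Srsf10, Srsf2, Srsf3 and Srsf7. Srsf3, the second highest SR gene and the smallest SR protein, had 136 and 154 TPM in MAR1INT, 273 and 304.5 TPM in MAR1HI and 282 and 278 TPM in BaP. Srsf3 fell with a log2 difference of -0.95 ± 0.20 against BaP (adjusted p = 0.00605) and of -0.99 ± 0.20 against MAR1HI (adjusted p = 0.00919) and its MAR1INT mean was 0.517 times that of BaP. Srsf10, which can act as a repressor of splicing when dephosphorylated, had 23.7 and 16.1 TPM in MAR1INT, 49.4 and 51.6 TPM in MAR1HI and 88.1 and 56.04 TPM in BaP. It showed the largest fall of the SR genes, -1.79 ± 0.32 against BaP (adjusted p = 0.00302), and fell against MAR1HI too (-1.32, adjusted p = 0.0227). Srsf2, a marker protein of nuclear speckles, had 72.5 and 51.95 TPM in MAR1INT, 117.3 and 141 TPM in MAR1HI and 117.0 and 132 TPM in BaP. Its log2 differences were -1.0 against BaP (adjusted p = 0.0144) and -1.05 against MAR1HI (adjusted p = 0.0208). Srsf7, a zinc knuckle SR protein, had 54.8 and 48.5 TPM in MAR1INT, 76.96 and 104 TPM in MAR1HI and 83.95 and 103.5 TPM in BaP, and fell against BaP (-0.84, adjusted p = 0.0331) while its difference from MAR1HI did not pass (-0.78, adjusted p = 0.068). For all 4 genes both MAR1INT libraries were below the other 4. The remaining 5 tested SR genes passed in no comparison.

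The hnRNP genes were the highest family in sum. Their summed level was 4532 and 4456 TPM in MAR1INT, 4824 and 5690 TPM in MAR1HI and 5061 and 4614 TPM in BaP. Against BaP 2 of 20 fell (10%, against 20.4% of all genes) and none rose. Against MAR1HI 3 fell (15%, near the 14.5% of all genes) and none rose. At an unadjusted p under 0.05 there were 3 and 6, where 4861 and 3495 of all 11337 genes had one.

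The hnRNP genes that changed were of low to middle level. Hnrnpll, a regulator of CD45 exon skipping in lymphocytes, had 17.1 and 8.71 TPM in MAR1INT, 27.99 and 55.4 TPM in MAR1HI and 30.6 and 41.1 TPM in BaP. It fell with a log2 difference of -1.46 ± 0.43 against BaP (adjusted p = 0.0294) and of -1.61 ± 0.43 against MAR1HI (adjusted p = 0.0334), with a wide spread between the duplicates. Hnrnpab, an RNA-binding protein of the A/B type, had 81.3 and 47.6 TPM in MAR1INT, 139.9 and 159.7 TPM in MAR1HI and 167 and 151 TPM in BaP. Hnrnpab fell with a log2 difference of -1.34 ± 0.28 against BaP (adjusted p = 0.00627) and of -1.25 ± 0.28 against MAR1HI (adjusted p = 0.0158). Hnrnpm, which binds GU-rich sequences, had 122 and 126 TPM in MAR1INT, 179 and 248 TPM in MAR1HI and 161 and 138.5 TPM in BaP. It fell against MAR1HI (-0.77, adjusted p = 0.0499) and its difference from BaP was -0.27 (adjusted p = 0.404). For all 3 genes both MAR1INT libraries were below the other 4.

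The most abundant hnRNP genes passed in no comparison of the fit on TPM, though some did in other settings. With FPKM, with quantile normalization and without histone genes, Hnrnpa2b1 and Hnrnpu fell against MAR1HI and Hnrnpa1 against BaP. With FPKM, Hnrnpl and Hnrnpu also fell against BaP. Hnrnpk, a poly(C)-binding protein, had 933 and 894 TPM in MAR1INT, 882 and 1101 TPM in MAR1HI and 948 and 863.5 TPM in BaP, and its groups overlapped. Hnrnpa1, which binds silencer elements and counters SR proteins, had 456 and 506 TPM in MAR1INT, 488 and 589 TPM in MAR1HI and 701 and 561 TPM in BaP. The MAR1INT libraries of Hnrnpa1 were below both BaP libraries but overlapped MAR1HI. Hnrnph1, which binds runs of G, had 664 and 773 TPM in MAR1INT, 570 and 652 TPM in MAR1HI and 590 and 604 TPM in BaP. It was above the other 4 in both MAR1INT libraries, with a log2 difference of 0.26 from BaP (adjusted p = 0.302). Hnrnpf, a close relative of Hnrnph1, lay between 349 and 394 TPM in all 6 libraries. Hnrnpa2b1, which takes part in RNA transport as well as splicing, had 437 and 389.8 TPM in MAR1INT, 604 and 636 TPM in MAR1HI and 523 and 456 TPM in BaP (adjusted p = 0.0576 against MAR1HI). Hnrnpu, a nuclear scaffold protein, had 297 and 224.5 TPM in MAR1INT, 364 and 472 TPM in MAR1HI and 347.5 and 300.4 TPM in BaP (adjusted p = 0.0689 against MAR1HI). Both MAR1INT libraries of these last 2 genes were below the other 4. Hnrnpl, a CA-repeat binding protein, had 299 and 274 TPM in MAR1INT, 286 and 361 TPM in MAR1HI and 329.8 and 342 TPM in BaP, with overlap between MAR1INT and MAR1HI.

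The SF3 complexes belong to the U2 snRNP and hold it on the branch point. All 3 SF3A genes were lower in both MAR1INT libraries than in the other 4, as 32.6% of all genes were. In each comparison 2 of the 3 (66.7%) fell, where 20.4% of all genes did against BaP and 14.5% against MAR1HI. Their summed level was 136.8 and 110.8 TPM in MAR1INT, 234.8 and 259.5 TPM in MAR1HI and 287.7 and 246.4 TPM in BaP. Sf3a3 (chr4:124714861-124732422) had 62.4 and 46.6 TPM in MAR1INT, 137 and 157 TPM in MAR1HI and 189.9 and 148 TPM in BaP. It fell with a log2 difference of -1.62 ± 0.25 against BaP (adjusted p = 0.00135) and of -1.43 ± 0.25 against MAR1HI (adjusted p = 0.00496), to means of 54.5 ± 11.2 TPM in MAR1INT, against 147 ± 13.8 TPM in MAR1HI and 169 ± 29.3 TPM in BaP (SD, n = 2). Sf3a1 had 23.1 and 14.97 TPM in MAR1INT, 37.7 and 42.1 TPM in MAR1HI and 43.8 and 40.8 TPM in BaP, and fell with a log2 difference of -1.14 against BaP (adjusted p = 0.021) and of -1.06 against MAR1HI (adjusted p = 0.0453). The partner subunit Sf3a2 had 51.2 and 49.2 TPM in MAR1INT, 59.8 and 60.6 TPM in MAR1HI and 54.1 and 57.3 TPM in BaP, and did not pass (log2 difference from BaP of -0.14, adjusted p = 0.681).

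Of the 6 SF3B genes, 1 fell against BaP (16.7%, where 20.4% of all genes did) and none against MAR1HI, where 14.5% of all genes did. Against MAR1HI 2 had an unadjusted p under 0.05, as 3495 of all 11337 genes did, and the smallest adjusted p was 0.0559. Sf3b4, which contacts the pre-mRNA beside the branch point, had 30.3 and 18.2 TPM in MAR1INT, 37.3 and 42.8 TPM in MAR1HI and 46.1 and 47.8 TPM in BaP, and fell with a log2 difference of -0.97 ± 0.32 against BaP (adjusted p = 0.0433). Sf3b1, the large scaffold subunit, had 193 and 147 TPM in MAR1INT, 135 and 239.7 TPM in MAR1HI and 110 and 119.8 TPM in BaP. Both MAR1INT libraries of Sf3b1 were above both BaP libraries and overlapped MAR1HI, and the difference from BaP did not pass (log2 0.55, adjusted p = 0.179). Sf3b6, which lies next to the branch point adenosine, had 129 and 144 TPM in MAR1INT, 160.1 and 153 TPM in MAR1HI and 204.5 and 145.5 TPM in BaP, the MAR1INT libraries just below the other 4, and did not pass (adjusted p = 0.298 against BaP).

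Most Snrp genes fell in MAR1INT. Against BaP 7 of 11 tested genes fell (63.6%, where 20.4% of all genes did) and against MAR1HI 6 did (54.5%, where 14.5% of all genes did). None rose in either, where 11.1% and 2.29% of all genes did. The number that fell depended on the fit. Against MAR1HI, only Snrpc and Snrpd1 fell with no trend, median-of-ratios scaling, 2 populations fitted or adjustment for transcript length. Of all genes 12.4%, 10.8%, 10.2% and 9.78% then fell. Against BaP, only Snrpa, Snrpc and Snrpd1 fell with no trend or adjustment for length, where 18.9% and 19.1% of all genes did. With a mean TPM of 5 or more required, all 7 and all 6 falls were kept. Summed levels were 1385 and 1433 TPM in MAR1INT, 2495 and 2298 TPM in MAR1HI and 3010 and 2046 TPM in BaP, so both MAR1INT libraries were below the other 4. The families were not tested against each other.

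The Sm proteins form a ring of 7 around the U1, U2, U4 and U5 RNAs. In each comparison 4 of its 7 genes (57.1%) fell, where 20.4% of all genes did against BaP and 14.5% against MAR1HI. The median longest transcript of the 7 was 1055 bases. Of all genes under 1000 bases 35.3% fell against BaP and 29.2% against MAR1HI, and from 1000 to under 2000 bases 27.7% and 18.4%. With each library adjusted for transcript length, only Snrpd1 of the 7 fell in each comparison, where 19.1% and 9.78% of all genes did. Snrpd1 had 51.9 and 52.2 TPM in MAR1INT, 209 and 191.5 TPM in MAR1HI and 281 and 163 TPM in BaP. Snrpd1 fell with a log2 difference of -2.02 ± 0.27 against BaP (adjusted p = 0.000748) and of -1.92 ± 0.27 against MAR1HI (adjusted p = 0.00186), the lowest adjusted p of the 63 genes in the comparison with BaP. Its mean of 52.05 ± 0.251 TPM in MAR1INT was 0.234 times that in BaP, 222 ± 83.1 TPM (SD, n = 2). Snrpg, the highest Snrp gene, had 303 and 313 TPM in MAR1INT, 561 and 469 TPM in MAR1HI and 687 and 513 TPM in BaP. Snrpg fell with a log2 difference of -0.94 against BaP (adjusted p = 0.00852) and of -0.73 against MAR1HI (adjusted p = 0.0409). Snrpf had 116.5 and 66.1 TPM in MAR1INT, 208 and 168 TPM in MAR1HI and 214 and 154 TPM in BaP, and fell with a log2 difference of -1.04 against BaP (adjusted p = 0.0278) and of -1.08 against MAR1HI (adjusted p = 0.039). Both MAR1INT libraries of these 3 genes lay below the other 4.

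Further Sm genes passed in 1 comparison or in none. Snrpd3 had 133 and 43.9 TPM in MAR1INT, 159 and 145.5 TPM in MAR1HI and 221 and 181.5 TPM in BaP, and fell against BaP (-1.37 ± 0.42, adjusted p = 0.0343). The MAR1INT duplicates of Snrpd3 were far apart, with replicate 1 near the MAR1HI level. Snrpb had 55.2 and 68.9 TPM in MAR1INT, 105 and 114 TPM in MAR1HI and 85.1 and 102 TPM in BaP, and fell against MAR1HI (-0.82, adjusted p = 0.0447). Snrpd2 had 216 and 417 TPM in MAR1INT, 439.5 and 374 TPM in MAR1HI and 667 and 346 TPM in BaP, with overlapping groups. Snrpe had 292 and 304 TPM in MAR1INT, 425 and 456 TPM in MAR1HI and 427 and 241 TPM in BaP, below both MAR1HI libraries and between the BaP libraries. Neither Snrpd2 nor Snrpe passed (smallest adjusted p of 0.182 and 0.181).

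Within the ring, the highest gene exceeded the lowest by 5.84 and 9.49 times in MAR1INT, 5.33 and 4.1 times in MAR1HI and 8.07 and 5.02 times in BaP, on the TPM scale. The MAR1INT ratios overlapped those of BaP and lay above both MAR1HI ratios.

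**Figure D4:**
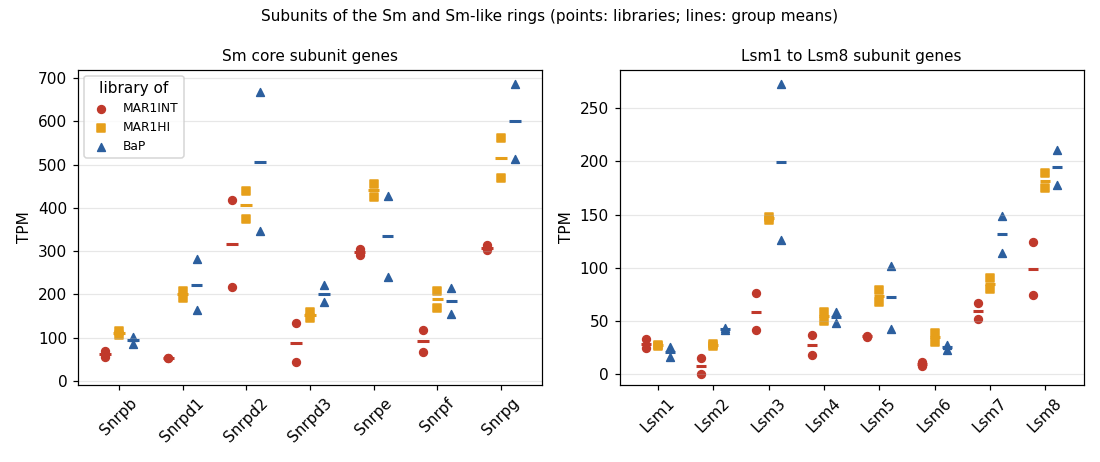
Level (TPM) of the 7 Sm core genes and of Lsm1 to Lsm8 in the 6 libraries; points are libraries and short lines group means. Snrpd1 in MAR1INT sits at 51.9 and 52.2 TPM, below its other 4 libraries, and for Lsm2 to Lsm8 both MAR1INT points lie below the other 4.

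Of the 4 genes for proteins specific to U1 or U2, 3 fell against BaP and 2 against MAR1HI. Snrpc (chr17:27840087-27851967), which helps U1 pair with the start of the intron, had 36.8 and 34.5 TPM in MAR1INT, 151.5 and 119 TPM in MAR1HI and 145 and 98.6 TPM in BaP. It fell with a log2 difference of -1.72 ± 0.27 against BaP (adjusted p = 0.00147) and of -1.89 ± 0.27 against MAR1HI (adjusted p = 0.00186), and its MAR1INT mean was 0.292 times that of BaP. Snrpa, which binds a stem loop of U1 RNA, had 36.2 and 18.2 TPM in MAR1INT, 63.8 and 72.8 TPM in MAR1HI and 65.6 and 81.3 TPM in BaP. Its log2 differences were -1.47 against BaP (adjusted p = 0.0104) and -1.37 against MAR1HI (adjusted p = 0.0245). Snrpa1 of the U2 snRNP had 41.4 and 17.3 TPM in MAR1INT, 56.1 and 57.3 TPM in MAR1HI and 78.95 and 63.3 TPM in BaP, and fell against BaP (-1.36, adjusted p = 0.0236). Both MAR1INT libraries were below the other 4 for these 3 genes, as they were for 32.6% of all genes. Snrpb2, the partner of Snrpa1, had 104 and 97.2 TPM in MAR1INT, 117 and 130.4 TPM in MAR1HI and 138.5 and 103 TPM in BaP and did not pass (-0.24 against BaP, adjusted p = 0.456).

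The Sm-like proteins Lsm2 to Lsm8 form the ring on U6 RNA, while Lsm1 replaces Lsm8 in the cytoplasmic ring that promotes mRNA decapping. All 7 genes of Lsm2 to Lsm8 were lower in both MAR1INT libraries than in the other 4, as 32.6% of all genes were. Against BaP 5 of the 7 fell (71.4%, where 20.4% of all genes did) and against MAR1HI 3 did (42.9%, where 14.5% did). The median longest transcript of the 7 was 1586 bases. With each library adjusted for transcript length, only Lsm3 and Lsm6 of the 7 fell against BaP (where 19.1% of all genes did). Only Lsm6 then fell against MAR1HI (where 9.78% did). The summed level of the 7 genes was 263 and 334 TPM in MAR1INT, 605 and 604 TPM in MAR1HI and 865 and 574 TPM in BaP. Lsm3 had 41.9 and 76.03 TPM in MAR1INT, 145 and 148 TPM in MAR1HI and 272 and 126 TPM in BaP, and fell with a log2 difference of -1.70 ± 0.38 against BaP (adjusted p = 0.00917) and of -1.36 ± 0.38 against MAR1HI (adjusted p = 0.0393). Lsm6 had 8.12 and 11.2 TPM in MAR1INT, 39.2 and 30.8 TPM in MAR1HI and 28.1 and 23.3 TPM in BaP. It fell with a log2 difference of -1.33 against BaP (adjusted p = 0.0163) and of -1.76 against MAR1HI (adjusted p = 0.0085), the lowest adjusted p of the Lsm genes there. Lsm8, the subunit that sets the nuclear ring apart, had 74.2 and 124 TPM in MAR1INT, 175 and 189 TPM in MAR1HI and 211 and 178 TPM in BaP, and fell with a log2 difference of -1.01 against BaP (adjusted p = 0.0193) and of -0.91 against MAR1HI (adjusted p = 0.0455). Lsm7 had 67.0 and 52.4 TPM in MAR1INT, 90.3 and 80.1 TPM in MAR1HI and 149 and 114 TPM in BaP, and fell against BaP (-1.12, adjusted p = 0.00886). Lsm2 was listed at 0 in MAR1INT replicate 1 and had 15.7 TPM in replicate 2, with 28.7 and 26.98 TPM in MAR1HI and 43.2 and 41.3 TPM in BaP. It passed against BaP (adjusted p = 0.0283), and since a listed 0 can be a failed estimate its size is not given.

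None of the 6 Lsm genes outside that ring passed against BaP or MAR1HI. None of the 6 had an unadjusted p under 0.05 there, where 4861 and 3495 of all 11337 genes did. Their median log2 difference from BaP was 0.39, against -1.13 for Lsm2 to Lsm8. Their summed level was 195 and 204 TPM in MAR1INT, 167 and 251 TPM in MAR1HI and 162 and 134 TPM in BaP. They are Lsm1, Lsm12, the mRNP proteins Lsm14a and Lsm14b, and Lsm10 and Lsm11 of the U7 snRNP that processes histone mRNA. Lsm1 and Lsm8, the alternative subunits, had log2 differences from BaP of 0.44 (adjusted p = 0.352) and -1.01, and the difference between them was not tested.

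Genes that work with the splicing proteins were counted in 5 lists. Of 53 other spliceosome proteins, none rose and 10 fell (18.9%) against BaP, where 20.4% of all genes fell, and 9 fell (17.0%) against MAR1HI, where 14.5% did, so both shares were near those of all genes. Ppih, a cyclophilin of the U4/U6 snRNP, had 0.112 and 6.15 TPM in MAR1INT, 73.3 and 86.5 TPM in MAR1HI and 85.6 and 72.96 TPM in BaP, a log2 difference of -4.83 ± 0.69 from BaP (adjusted p = 0.000981). Another cyclophilin, Ppie, was listed at 0 in MAR1INT replicate 1 and had 6.95 TPM in replicate 2, with 20.2 and 25.3 TPM in MAR1HI and 28.02 and 23.6 TPM in BaP. Snu13, which binds U4 RNA, fell with a log2 difference of -1.31 against BaP (adjusted p = 0.00588), and Snrnp25 of the minor spliceosome fell with one of -1.16 (adjusted p = 0.0268). Both MAR1INT libraries were below the other 4 for these 4 genes.

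Among 19 tested SR protein kinases, carriers and SR-related proteins, 3 rose (15.8%, against 11.1% of all genes) and 1 fell (5.3%, against 20.4%) in the comparison with BaP, and none rose and 1 fell (5.3%, against 14.5%) in that with MAR1HI. Srpk1, a kinase that sends SR proteins to the nucleus, had 315 and 304 TPM in MAR1INT, 185 and 266 TPM in MAR1HI and 113 and 125 TPM in BaP, and rose by a log2 difference of 1.37 ± 0.23 against BaP (adjusted p = 0.0021). Clk1, a nuclear SR kinase, had 319.5 and 333 TPM in MAR1INT, 192 and 324.5 TPM in MAR1HI and 114 and 146 TPM in BaP, and rose by one of 1.33 ± 0.27 (adjusted p = 0.00557). Both genes were higher in every MAR1INT and MAR1HI library than in either BaP library, and their MAR1HI minus BaP differences did not pass (adjusted p = 0.0802 and 0.108). Scaf8 rose by a log2 difference of 0.81 (adjusted p = 0.028) and Rnps1, a part of the exon junction complex, fell with a log2 difference of -0.70 (adjusted p = 0.0499).

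Of 35 other tested RNA-binding splicing regulators, 2 rose and 5 fell against BaP (5.7% and 14.3%, where 11.1% and 20.4% of all genes did), and none rose and 4 fell against MAR1HI (11.4%, where 14.5% of all genes fell). Ilf2 fell with a log2 difference of -1.31 against BaP (adjusted p = 0.00495). Ptbp1, a repressor that binds pyrimidine tracts, fell with a log2 difference of -1.19 against BaP (adjusted p = 0.00605). Cirbp, a cold-inducible RNA-binding protein, had 183 and 149.7 TPM in MAR1INT, 113 and 78.5 TPM in MAR1HI and 96.9 and 56.9 TPM in BaP, and rose by a log2 difference of 1.14 (adjusted p = 0.0197). The MAR1INT libraries stood apart from the other 4 for all of these genes.

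The SMN complex loads Sm proteins onto snRNAs in the cytoplasm. Of 22 genes for snRNP assembly and maturation, none rose and 5 fell against BaP (22.7%, near the 20.4% of all genes), and none rose and 4 fell against MAR1HI (18.2%, against 14.5% of all genes). Gemin8 had 2.2 and 2.17 TPM in MAR1INT, 10.6 and 15.7 TPM in MAR1HI and 16.7 and 16.3 TPM in BaP, and fell with a log2 difference of -2.46 ± 0.40 against BaP (adjusted p = 0.00195). Gemin6, which binds Gemin8, was listed at 0 in both MAR1INT libraries, with 2.49 and 3.08 TPM in MAR1HI and 8.87 and 5.6 TPM in BaP. Gemin2, which holds the partly built Sm ring, fell with a log2 difference of -1.88 (adjusted p = 0.00937) and Larp7 fell with one of -1.75 (adjusted p = 0.012). In all 4 genes both MAR1INT libraries lay below the other 4. Of 8 decapping genes that work with the Lsm1 ring, 1 rose (12.5%, against 11.1% of all genes) and none fell against BaP, and none passed against MAR1HI, also at an unadjusted p under 0.05. The gene that rose was Ddx6, a helicase that represses mRNA, with 139 and 132 TPM in MAR1INT, 85.1 and 110.4 TPM in MAR1HI and 74.4 and 72.9 TPM in BaP (0.87, adjusted p = 0.0187). No gene of these 5 lists passed in MAR1HI minus BaP, where the smallest adjusted p was 0.0802.

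Cell cycle genes were lower in MAR1INT by far more than the splicing genes were. Of 30 S phase genes, 29 fell against BaP and 28 against MAR1HI, and of 31 genes of G2 and mitosis all fell in both comparisons. Over all tested genes, 20.4% fell against BaP and 14.5% against MAR1HI. Summed levels of the S phase list were 866 and 729 TPM in MAR1INT, 2355 and 2756 TPM in MAR1HI and 2723 and 2551 TPM in BaP. Those of the mitosis list were 522 and 408 TPM in MAR1INT, 3480 and 4544 TPM in MAR1HI and 3009 and 3136 TPM in BaP. The median log2 differences of the 2 lists from BaP were -3.08 and -2.70, against -0.38 for the splicing genes. The replication-dependent histone genes made up 8.21% and 7.81% of all TPM in MAR1INT, 18.6% and 12.01% in MAR1HI and 15.2% and 17.6% in BaP. The part of these genes in the splicing gene result was not tested.

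Markers of other cell types also differed between the populations. Over all tested genes, 20.4% fell and 11.1% rose in MAR1INT against BaP. Against BaP, MAR1INT was lower in 7 of 14 neutrophil, 10 of 12 monocyte and macrophage, 6 of 7 dendritic cell and MHC class II, 3 of 3 T and NK cell, 3 of 5 stem and progenitor, 1 of 2 mast cell, 1 of 8 erythroid and 1 of 3 megakaryocyte genes tested. Of 8 eosinophil genes 5 fell and 2 rose, of 10 basophil genes 4 fell and 4 rose, and none of 4 B and plasma cell genes passed, also at an unadjusted p under 0.05. The neutrophil list summed to 3962 and 3334 TPM in MAR1INT, 4929 and 3794 TPM in MAR1HI and 6202 and 11250 TPM in BaP. The eosinophil list summed to 213 and 349 TPM in MAR1INT, 109 and 158 TPM in MAR1HI and 2166 and 1152 TPM in BaP. The dendritic cell list summed to 16.1 and 25.6 TPM in MAR1INT, 73.3 and 60.2 TPM in MAR1HI and 991 and 358 TPM in BaP. These 3 lists were higher in both BaP libraries than in the other 4. The monocyte list summed to 129.7 and 114 TPM in MAR1INT, 98.5 and 93.0 TPM in MAR1HI and 300.4 and 351 TPM in BaP, and the T and NK cell list to 34.1 and 51.5 TPM, 197 and 198.5 TPM, and 375 and 387 TPM in the same populations. Stem and progenitor markers summed to 24.6 and 21.9 TPM in MAR1INT, 37.2 and 58.2 TPM in MAR1HI and 127.7 and 122.9 TPM in BaP, and mast cell markers to 0.0446 and 0.449 TPM, 4.18 and 5.14 TPM, and 45.5 and 42.1 TPM. Megakaryocyte markers summed to 443 and 343 TPM in MAR1INT, 405.5 and 530.0 TPM in MAR1HI and 256 and 267 TPM in BaP, and B and plasma cell markers to 30.3 and 14.3 TPM, 39.2 and 42.8 TPM, and 23.1 and 29.2 TPM. Below 1 TPM in every library were the dendritic cell markers Batf3 and Xcr1, the T and NK cell markers Cd3g, Cd8a, Klrb1c and Ncr1, the eosinophil marker Il5ra, the stem cell markers Hlf and Mecom, and the platelet markers Gp1bb and Vwf. The erythroid list summed to 2786 and 1266 TPM in MAR1INT, 1195 and 598 TPM in MAR1HI and 1547 and 2314 TPM in BaP. Immediate early genes, which also answer to cell handling, summed to 804 and 835 TPM in MAR1INT, 388 and 540.3 TPM in MAR1HI and 196 and 323.5 TPM in BaP, and 8 of 14 rose against BaP. None of these lists was tested for a part in the splicing gene result.

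Transcript length moved with the differences too. Over all tested genes the median log2 difference of MAR1INT from BaP was -0.66 for genes whose longest annotated transcript is under 1000 bases and 0.14 for those of 6000 bases or more. Lengths were known for 94.6% of tested genes and for all 63 splicing genes. The median length was 2032 bases for the splicing genes that fell against BaP, 3035 bases for the other splicing genes and 3302 bases for all tested genes. From 1000 to under 2000 bases, the 11 splicing genes had a median of -0.97, against -0.46 for all 1794 genes. From 2000 to under 3000 bases the 17 splicing genes had a median of -0.23, against -0.28 for all 2300 genes, and the 4 classes of other lengths gave splicing genes the lower median. With each library adjusted for length, a setting chosen after the data were seen, 15 splicing genes fell against BaP (where 19.1% of all genes did) and 6 rose (where 21.5% did). The 6 were Srsf5, Lsm10, Lsm14a, Sf3b1, Hnrnph3 and Hnrnpul2. Against MAR1HI 7 fell and 1 rose, where 9.78% of all genes fell and 10.6% rose. The medians were then -0.20 against BaP and -0.16 against MAR1HI, against 0.03 for all genes in both.

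**Figure D5:**
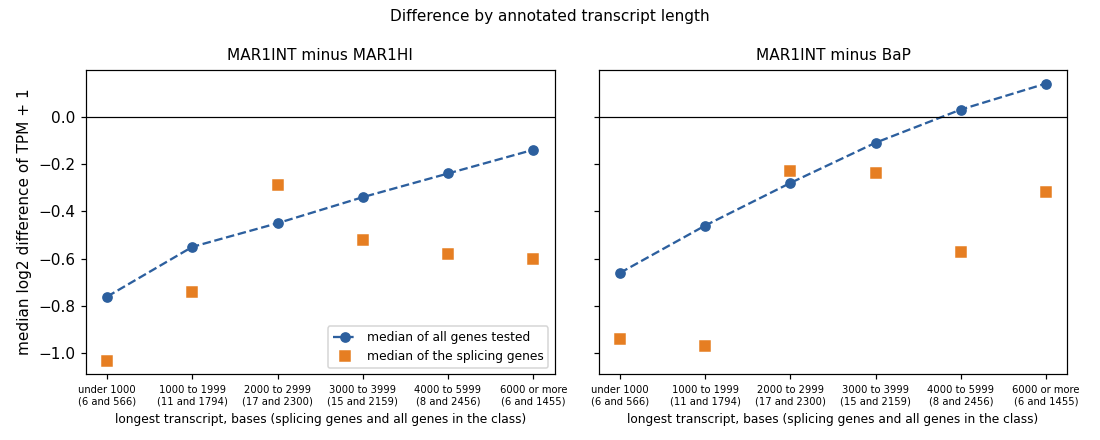
Median log2 difference of TPM + 1 by class of longest annotated transcript (bases), for all genes tested and for the splicing genes; numbers under each class count the splicing genes and all genes. The median of all genes runs from -0.66 under 1000 bases to 0.14 at 6000 bases or more in MAR1INT minus BaP, and the splicing genes lie below it in 5 of the 6 classes.

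Some levels may hold reads of other genes. Of the 65 genes, 6 overlap a gene annotated on the same strand and 7 a gene on the other strand, and whether counting used strand is not given in the sources used here. Gm6793, which overlaps Hnrnpa3 on its strand, had 40.5 and 0 TPM in MAR1INT, 351 and 246 TPM in MAR1HI and 336 and 155 TPM in BaP. Gm10052, which overlaps Hnrnpa1 on its strand, had 1.41 and 9.53 TPM in MAR1INT, 105 and 40.9 TPM in MAR1HI and 128 and 117 TPM in BaP. Reads of Hnrnpa1 and Hnrnpa3 could be split with these genes, so their levels are uncertain. Cog4, on the strand opposite Sf3b3, had 59.9 and 48.9 TPM in MAR1INT, 43.8 and 55.7 TPM in MAR1HI and 33.5 and 35.3 TPM in BaP. The genes opposite Snrpa, Snrpf, Hnrnpab, Hnrnph3 and Srsf4 stayed below 20 TPM, and Rmi1, opposite Hnrnpk, below 40 TPM. Mir697, inside Sf3a3, had 23.5 and 0 TPM in MAR1INT, 0.709 and 2.13 TPM in MAR1HI and 8.35 and 6.17 TPM in BaP.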

How the data were processed

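RNA was measured in 6 libraries of 3 sorted mouse bone marrow populations. Libraries were made by capture (SureSelect XT RNA Direct) from total RNA isolated in TRIzol LS, per the labels' protocols. Trimmomatic, HISAT2, StringTie and the build mm10 are named as the tools and genome used, per the submitters' processing notes; versions, options, strand setting and annotation release are not given in the sources used here. The deposited tables hold coverage (a signal, mean depth per base), FPKM and TPM per gene, per the file headers. No read counts were used, so depth in reads is unknown, no counting interval is given and precision rests on the duplicates. The median SD between duplicates on the log2 scale was 0.23 in MAR1INT, 0.14 in MAR1HI and 0.20 in BaP over the splicing genes. Over all tested genes it was 0.25, 0.31 and 0.19, highest in MAR1HI. The median-of-ratios scaling factors were 0.996 and 0.918 in MAR1INT, 0.996 and 1.376 in MAR1HI and 0.944 and 0.953 in BaP, so MAR1HI replicate 2 stood apart.

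Gene IDs were joined to symbols and positions of GRCm38.p6 (24462 of 24532 matched), and all 65 genes overlapped their reference interval. One pseudogene symbol was left out. Rows of an ID listed in several parts were summed. The 11337 genes that reached 1 TPM in 2 or more libraries entered a limma fit (3.58.1, R 4.3.3) of log2(TPM + 1) with a mean-variance trend and 1 term per population. It had 3 residual degrees of freedom and a median prior of 6.39. The 3 contrasts and the F test were adjusted by Benjamini-Hochberg over all tested genes. A log2 difference on this scale understates changes of low genes. An exact permutation of 2 against 2 libraries cannot give a p under 0.333. The fit was tested on simulated data. Tables and figures used numpy 2.4.6, pandas 2.3.3 and matplotlib 3.10.9 under Python 3.11.15.

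Named genes were those called in a contrast, the 12 highest by mean TPM, the top 3 per family, those not tested and, per pathway list, up to 4 called genes with the smallest adjusted p in MAR1INT minus BaP. The other genes named were singled out after their values were seen. Some genes that this rule or a marker list names are not reported here. The members, the 7 pathway lists and the 12 marker lists were chosen with earlier results of these data known. Alternatives were a pseudocount of 0.1, other filters and scalings, FPKM, a fit without histone genes, a replicate block, fits of 2 populations, no trend, each library left out, and, added after seeing the data, a loess adjustment for transcript length.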

Additional observations from a re-analysis of the deposited data

How the results depend on the processing

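The limits of these results are 2 libraries per population, no read counts, and changes between scalings. Of 680 alternative values of single gene calls, 442 kept their call and 238 kept their direction without it; none reversed. For MAR1HI minus BaP, none rose in any setting, and 1 fell with FPKM, quantile normalization, median-of-ratios scaling and length adjustment (1.27%, 1.57%, 0.829% and 1.36% of all genes). Its median was -0.17, -0.16, -0.24 and -0.10 in these 4 settings. For MAR1INT minus MAR1HI, 0 rose with no filter and with no trend (0.274% and 1.23% of all genes). The number that fell (with the share of all genes) was 10 with a pseudocount of 0.1 (13.0%), 5 with no filter (2.75%), 9 with median-of-ratios scaling (10.8%), 7 with only the 2 populations fitted (10.2%), 5 with no trend (12.4%) and 7 with length adjustment (9.78%). Its median was -0.41 with quantile normalization, -0.28 with median-of-ratios scaling and -0.16 with length adjustment. For MAR1INT minus BaP, 2, 3 and 6 rose with quantile normalization, median-of-ratios scaling and length adjustment (20.3%, 15.8% and 21.5% of all genes). In that comparison 11 fell with no filter (8.4% of all genes) and 12 with no trend (18.9% of all genes, against 19.0% of the splicing genes). Its median was -0.60 with FPKM, -0.52 without histone genes and -0.20 with length adjustment. The F test called 6 splicing genes with no filter, where it called 1449 of all 18601 genes. It called 26 without histone genes, where it called 3389 of all 11275 genes. With no trend it called 7, where it called 2478 of all 11337 genes. Leaving out 1 library each, those that fell numbered 0 to 0 in MAR1HI minus BaP, 1 to 19 in MAR1INT minus MAR1HI and 3 to 21 in MAR1INT minus BaP. Those that rose numbered 0 to 0, 0 to 1 and 1 to 2, the medians ran from -0.04 to 0.18, -0.81 to -0.48 and -0.52 to -0.24, and the F test called 5 to 21. The cause of these changes was not tested, though a left-out library lowers the degrees of freedom and no filter raises the number of genes tested. With the replicate number as a replicate block, 13 fell and 1 rose against MAR1HI, 21 fell and 1 rose against BaP and the F test called 19, and no gene passed in MAR1HI minus BaP. The labels give only a number, so whether same-numbered libraries shared mice or a batch is unknown. Their deviations correlated at -0.059 (MAR1INT and MAR1HI), -0.092 (MAR1INT and BaP) and 0.154 (MAR1HI and BaP). With 1 pair of libraries per population these values cannot settle it.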
